A study of Homo sapiens with 9 samples.

Results

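The mitosis genes described here are 47 human genes that act between the G2 phase and the end of cell division, followed in SW1783 cells treated with herbal extracts. They were taken by symbol from the count table, and all 47 were found among its 60675 genes. SW1783 is a human astrocytoma line, grown in L-15 medium with 10% serum and exposed for 24 h in every group. The groups were 70% ethanol extracts of Poria Cocos, a fungus, and of Atractylodis Rhizoma, a plant rhizome, at 20, 100 and 500 µg/mL with 1 library each, and vehicle (DMSO) with 3 libraries. For the vehicle, the label of each sample reads 0.1% DMSO and the series design reads 2%. No treated condition was repeated, so the error in a test comes from how far vehicle libraries lie apart, how far libraries lie from a fitted dose line or, for treated against vehicle, also from how far the 6 treated libraries of different extracts and doses lie apart. Whether the libraries stem from separate cultures is not in the labels, and the p-values then measure only the spread between these libraries, which may be technical.

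Cells entering mitosis switch on a set of genes whose products condense the chromosomes, build the spindle and split the cell. Cyclin B with CDK1 starts the process, Polo and Aurora kinases carry it forward, and the spindle checkpoint holds the cell until every kinetochore is attached. CDC20 then turns the anaphase-promoting complex on cyclin B and securin, the sister chromatids part, and cytokinesis follows. Most of these genes are transcribed late in the cell cycle, bound by the MuvB complex with B-MYB and FOXM1, often through promoters that carry a cell cycle homology region (CHR) and CCAAT boxes. In a growing tumour line their summed RNA is a common gauge of how many cells are near division. In a bulk library, fewer dividing cells and less of these RNAs in each such cell cannot be told apart.

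All 47 genes passed the filter on low counts, which kept 18310 of 60675 genes. Library totals lay between 40269728 and 48905600 counts, and the mitosis genes held between 0.516% and 0.609% of them. Levels are given as CPM, counts relative to the library total scaled by TMM factors, and compared between genes only as RPKM, which also divides by transcript length. Vehicle libraries differed from each other by a chi-square per degree of freedom of 2.46 to 3.44, and treated libraries differed from vehicle libraries by 13.98 to 31.41. Of 9 astrocyte markers, GFAP, S100B, AQP4, SLC1A2 and ALDH1L1 stayed under 1 CPM in every library, while SLC1A3, SOX9, NES and VIM reached it, as did all 7 mesenchymal markers. Of the markers of other cell types, 4 of 6 neuronal (not RBFOX3 and STMN2), 3 of 5 myeloid (not AIF1 and ITGAM), 2 of 5 epithelial (KRT8 and KRT18, not EPCAM, CDH1 and KRT19) and 3 of 5 endothelial ones (not VWF and CDH5) reached 1 CPM in some library.

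In vehicle cells the mitosis genes spanned 19.8 to 527 CPM, with a median of 97.1 CPM, and their coefficient of variation over the 3 vehicle libraries ran from 0.341% to 9.54%, with a median of 3.11%. Per length, the highest level was that of PTTG1, which encodes securin, with 173 ± 8.08 RPKM (SD, n = 3 vehicle libraries). CDC20, the activator of the anaphase-promoting complex, followed with 143 ± 3.37 RPKM, then ANLN, the cytokinesis scaffold anillin, with 110.1 ± 1.99 RPKM and UBE2C, a ubiquitin-conjugating enzyme of that complex, with 106 ± 4.47 RPKM. The gap between ANLN and UBE2C was smaller than the sum of their SDs, while those above ANLN were larger. The lowest was ESPL1, which encodes separase, with 3.83 ± 0.133 RPKM. Vehicle replicate 1 lay above the vehicle mean for 41 of the 47 genes, by a median of 0.03 on the log2 scale, so the vehicle libraries were themselves not level for this gene group.

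**Figure D1:**
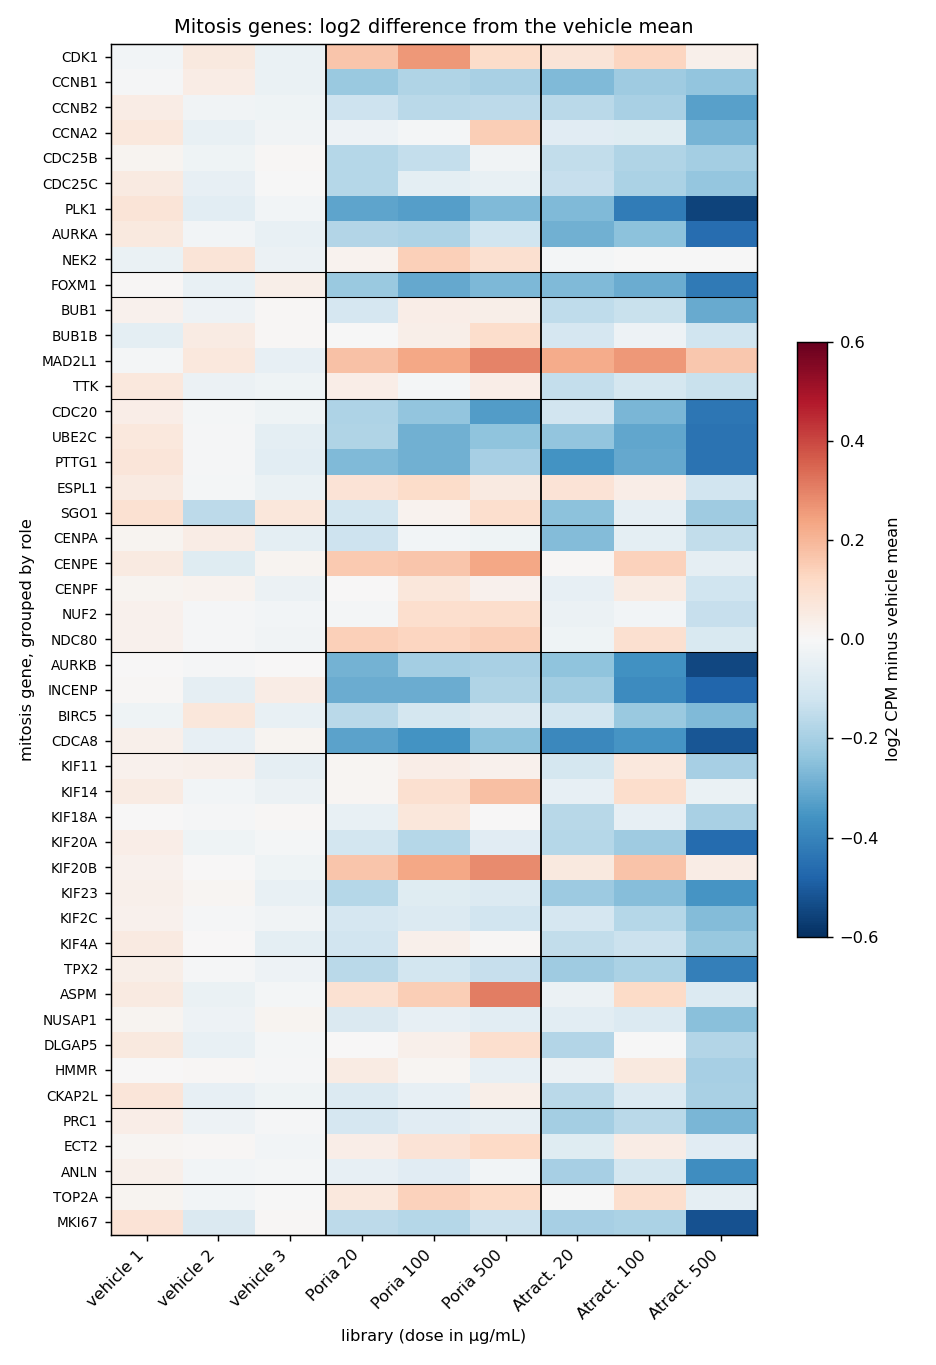
Log2 difference of each mitosis gene (rows, grouped by role) from the mean of the 3 vehicle libraries, in each of the 9 libraries (columns, dose in µg/mL). Blue is lower and red is higher than the vehicle mean, and the Atractylodis library at 500 µg/mL, the lowest of all 9 libraries for 36 of the 47 genes, is the bluest column.

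Treated cells as a whole were compared with vehicle cells to find the shift that the treated libraries share. All titles name batch D, but the sample codes of the treated libraries carry another prefix than those of the vehicle libraries. A shift common to all treated libraries cannot be told apart from a difference between these sets of samples. Of the 47 mitosis genes, 17 fell and 3 rose (edgeR quasi-likelihood test, adjusted p under 0.05), where 13.3% of all tested genes fell, 12% rose and 25.3% passed in either direction. Their median change was -0.10, against 0.01 for all tested genes. In 19 of the 47 genes every treated library lay below every vehicle library, and in 2 genes above, against 13.7% and 12.4% of all tested genes. By role, 4 of 4 genes of the chromosomal passenger complex fell, 3 of 5 anaphase genes, 5 of 9 G2/M kinases, cyclins and phosphatases, and FOXM1. The 5 kinetochore genes did not pass, with changes between -0.11 and 0.11, nor did the mitotic chromosome genes MKI67 (-0.22 ± 0.08, adjusted p = 0.054) and TOP2A (0.06 ± 0.04, 0.31).

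Markers of cell types moved in the same comparison. Of 7 mesenchymal markers, 4 fell and 0 rose (median -0.28), with summed levels of 10570 to 12070 CPM in treated libraries and 12670 to 12900 CPM in vehicle libraries. Of the 5 astrocyte markers tested, SOX9 and VIM fell and SLC1A3 rose, and the list summed to 4776 to 5480 CPM in treated and 5914 to 6225 CPM in vehicle libraries. The myeloid list (133 to 164 CPM in treated, 175 to 183 CPM in vehicle libraries) and the epithelial list (127 to 230.2 CPM in treated, 239 to 246 CPM in vehicle libraries) were also lower in every treated library, the endothelial list (33.3 to 41.3 CPM and 30.2 to 32.9 CPM) was higher, and the neuronal list (160 to 194 CPM and 179 to 182 CPM) overlapped. In these 4 lists CD68 fell and KDR rose among the genes tested. The astrocyte, myeloid, epithelial and endothelial sums came mostly from 1 gene each. In vehicle libraries these genes averaged 5987 CPM (VIM), 166 CPM (CD68), 223 CPM (KRT18) and 28.9 CPM (KDR). Some other genes of these lists moved otherwise. PTPRC lay above all vehicle libraries in 4 treated libraries and below them in 2, and NES lay above them in 5 and below in 0. Of the mesenchymal markers, COL1A2 lay above all vehicle libraries in 5 treated libraries and below them in 1, and PDGFRB above in 2 and below in 1. Along the dose trends 4 of 7 mesenchymal markers fell with Atractylodis and 5 with Poria. The part of these markers in the results on mitosis genes was not tested.

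The largest fall was in the chromosomal passenger complex, which corrects faulty attachments of chromosomes to the spindle. CDCA8 (ENSG00000134690, chromosome 1, 37692418 to 37709719, plus strand), which encodes its subunit borealin, had 90.1, 85.3 and 89.3 CPM in the vehicle libraries, 70.4, 68.7 and 74.2 CPM with 20, 100 and 500 µg/mL Poria extract and 67.3, 68.9 and 61.6 CPM at the same doses of Atractylodis extract. All 6 treated libraries were below all 3 vehicle libraries, with a log2 change of -0.36 ± 0.05 (SE; edgeR adjusted p = 3.1e-05). AURKB, the kinase of the complex, had 52.4, 52.1 and 52.4 CPM in vehicle, 43.0, 45.4 and 45.7 CPM with rising Poria dose and 44.2, 40.5 and 35.7 CPM with rising Atractylodis dose. Its vehicle libraries were almost level, and every treated library was lower, with a change of -0.30 ± 0.06 (adjusted p = 0.0023). INCENP, the scaffold of the complex, had 69.4, 66.6 and 71.4 CPM in vehicle, 56.1, 56.2 and 60.9 CPM with Poria and 59.8, 53.1 and 49.5 CPM with Atractylodis, a change of -0.31 ± 0.05 (adjusted p = 0.00063). BIRC5, which encodes survivin, had 144, 154 and 142 CPM in vehicle, 131, 136 and 138 CPM with Poria and 136, 126 and 122 CPM with Atractylodis. Its change of -0.16 ± 0.04 was the smallest of the 4 subunits (adjusted p = 0.012).

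Among the anaphase genes, PTTG1, UBE2C and CDC20 fell, and ESPL1 and SGO1 did not pass. PTTG1, which encodes the inhibitor of separase, had 194, 184 and 177 CPM in vehicle, 154, 151 and 161 CPM with rising Poria dose and 144, 149 and 136 CPM with rising Atractylodis dose, a change of -0.31 ± 0.05 (edgeR adjusted p = 0.00014). UBE2C had 101, 96.2 and 92.7 CPM in vehicle, 85.2, 79.1 and 81.6 CPM with Poria and 81.8, 77.8 and 70.8 CPM with Atractylodis, and changed by -0.28 ± 0.05 (adjusted p = 0.00038). CDC20 (ENSG00000117399, chromosome 1, 43358955 to 43363203, plus strand) had 261, 253 and 249.7 CPM in vehicle, 224, 216 and 202 CPM with Poria and 235, 210.2 and 188 CPM with Atractylodis. Its CPM was lower at each higher dose of either extract, and its change over all treated libraries was -0.26 ± 0.05 (adjusted p = 0.0023). ESPL1, the protease that cleaves cohesin, changed by 0.04 ± 0.05 (adjusted p = 0.58), and SGO1, shugoshin, which protects cohesin at the centromere, by -0.09 ± 0.08 (adjusted p = 0.47).

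Among the kinases and cyclins that drive entry into mitosis, PLK1 fell most. PLK1 (ENSG00000166851, chromosome 16, 23677656 to 23690367, plus strand), the Polo-like kinase, had 183, 165 and 171 CPM in the vehicle libraries, 139, 137 and 144 CPM with rising Poria dose and 144, 129 and 118 CPM with rising Atractylodis dose. The treated and vehicle libraries did not overlap, and the change was -0.36 ± 0.06 (edgeR adjusted p = 0.00038). CCNB1, cyclin B1, had 213, 221 and 208 CPM in vehicle, 183, 189 and 186 CPM with Poria and 178, 184 and 181 CPM with Atractylodis, a change of -0.22 ± 0.03 (adjusted p = 0.00019). The treated libraries sat close together, with no order by dose. CCNB2, cyclin B2, had 83.5, 79.8 and 79.5 CPM in vehicle, 74.2, 72.2 and 72.5 CPM with Poria and 72.3, 70.6 and 64.4 CPM with Atractylodis, a change of -0.19 ± 0.04 (adjusted p = 0.003). AURKA, the Aurora kinase of the spindle poles, had 139, 131 and 129 CPM in vehicle, 118, 117 and 122 CPM with Poria and 109, 112 and 96.8 CPM with Atractylodis, a change of -0.24 ± 0.06 (adjusted p = 0.0071). FOXM1 (ENSG00000111206, chromosome 12, 2857681 to 2877155, minus strand), the transcription factor that acts on many of these genes, had 204, 197 and 208 CPM in vehicle, 174, 164 and 168 CPM with Poria and 169, 165 and 151 CPM with Atractylodis. Its groups did not overlap, and it changed by -0.30 ± 0.04 (adjusted p = 6.5e-05).

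The 3 genes that rose act in different steps. MAD2L1 (ENSG00000164109, chromosome 4, 120055608 to 120067074, minus strand), which encodes the checkpoint protein MAD2, had 43.3, 45.6 and 42.2 CPM in vehicle, 49.4, 51.3 and 53.8 CPM with rising Poria dose and 51.1, 52.5 and 48.9 CPM with rising Atractylodis dose, a change of 0.23 ± 0.04 (edgeR adjusted p = 0.00076). The other checkpoint genes BUB1, BUB1B and TTK did not pass. KIF20B (ENSG00000138182, chromosome 10, 89701610 to 89774939, plus strand), a kinesin of cytokinesis, had 104, 102 and 100.0 CPM in vehicle, 114, 119.8 and 124 CPM with Poria and 106, 115 and 105 CPM with Atractylodis. Every treated library was above every vehicle library for MAD2L1 and KIF20B, and KIF20B changed by 0.16 ± 0.05 (adjusted p = 0.018). CDK1, the kinase partner of cyclin B, had 71.8, 75.7 and 70.6 CPM in vehicle, 81.6, 87.2 and 78.4 CPM with Poria and 76.7, 79.6 and 74.3 CPM with Atractylodis. Its groups overlapped, and it changed by 0.13 ± 0.05 (adjusted p = 0.042). The call of KIF20B was lost whichever vehicle library was left out (adjusted p = 0.053, 0.071 and 0.097 without vehicle replicates 1, 2 and 3). That of CDK1 was lost whichever vehicle library was left out (0.16, 0.051 and 0.20), without the Poria library at 100 (0.085) or 20 µg/mL (0.084) and without the Atractylodis library at 100 µg/mL (0.067).

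To show where the CHR and CCAAT motifs lie in genes that moved, the RefSeq promoters (GRCh38.p14, 250 bases before to 50 bases after the start) are printed for the 4 mitosis genes with the smallest p for treated against vehicle whose window holds both. CDCA8, PLK1 and INCENP fell and MAD2L1 rose. Capitals mark matches to the CHR, searched as TTTGAA or TTCGAA on both strands. Matches to the CCAAT box, searched as CCAAT on both strands (ATTGG when read on the printed strand), are in capitals too. In CDCA8 a CHR match and a CCAAT match overlap. In PLK1 the CHR match begins 29 bases and the CCAAT match 73 bases before the start. In MAD2L1 the CHR match begins 24 bases after the start and the CCAAT match 229 bases before it. Each sequence runs 5′ to 3′ on the strand of its gene.
CDCA8 (chr1:37692266-37692565, plus strand): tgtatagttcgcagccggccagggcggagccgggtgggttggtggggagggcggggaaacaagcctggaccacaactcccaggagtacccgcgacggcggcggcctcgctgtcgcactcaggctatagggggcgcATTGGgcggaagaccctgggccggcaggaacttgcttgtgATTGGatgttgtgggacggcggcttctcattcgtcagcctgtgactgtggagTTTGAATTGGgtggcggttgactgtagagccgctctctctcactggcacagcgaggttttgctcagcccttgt
PLK1 (chr16:23678639-23678938, plus strand): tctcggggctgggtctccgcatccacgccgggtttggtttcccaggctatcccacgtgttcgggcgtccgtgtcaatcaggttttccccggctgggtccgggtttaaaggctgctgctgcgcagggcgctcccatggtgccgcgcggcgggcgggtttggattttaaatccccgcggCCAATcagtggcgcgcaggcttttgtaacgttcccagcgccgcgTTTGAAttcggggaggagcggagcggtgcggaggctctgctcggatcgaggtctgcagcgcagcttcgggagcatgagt
INCENP (chr11:62123761-62124060, plus strand): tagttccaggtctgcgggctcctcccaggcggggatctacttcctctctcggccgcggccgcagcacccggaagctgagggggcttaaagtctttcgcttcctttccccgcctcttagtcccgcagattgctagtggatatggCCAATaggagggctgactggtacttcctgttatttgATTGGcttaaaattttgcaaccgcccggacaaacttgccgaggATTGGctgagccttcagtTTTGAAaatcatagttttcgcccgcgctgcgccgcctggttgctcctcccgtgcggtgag
MAD2L1 (chr4:120066799-120067098, minus strand): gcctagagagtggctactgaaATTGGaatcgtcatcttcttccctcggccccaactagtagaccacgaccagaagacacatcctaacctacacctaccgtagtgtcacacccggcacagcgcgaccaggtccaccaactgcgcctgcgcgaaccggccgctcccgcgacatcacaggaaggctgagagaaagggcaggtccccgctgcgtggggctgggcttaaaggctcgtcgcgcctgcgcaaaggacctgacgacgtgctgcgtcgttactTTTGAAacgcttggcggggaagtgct

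The table gave a promoter for 41 of the 47 mitosis genes. A CHR was found in 31 of them (75.6%), against 16.4% of all 35116 promoters in the table, and a CCAAT box in 33 (80.5%), against 34.6%. Both motifs were found in 27 (65.9%), against 6.4% of all promoters. The motifs overlap in CDCA8 and MKI67. Of the 27 genes with both motifs, 7 fell and 3 rose in treated against vehicle libraries, with a median change of -0.09, and of the 14 without both, 5 fell and 0 rose, with a median of -0.13. The split leaves out the 6 genes without a promoter, AURKA, FOXM1, TTK, UBE2C, BIRC5 and TPX2, of which all but TTK fell. The motif matches describe the letters in the windows and are not shown here to be bound.

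The dose trend of the Atractylodis extract asks whether these genes change as its dose rises from vehicle. The slope takes in the step from vehicle to the lowest dose. Along it 24 of 47 fell and 1 rose (edgeR adjusted p under 0.05). Of all tested genes, 10.6% fell, 8.54% rose and 19.1% passed in either direction. Between the treated doses, CPM fell from dose to dose in 16 of the 47 genes and rose in 1, where 20.9% and 20.5% of all tested genes did. The slopes had a median of -0.07 per 5-fold dose step, against 0.0033 for all tested genes, and 43 of the 47 were negative. Falls came in the chromosomal passenger complex (4 of 4 genes), the G2/M kinases, cyclins and phosphatases (6 of 9), FOXM1, the anaphase genes (3 of 5), the kinesins (4 of 8), the cytokinesis genes (2 of 3), the spindle assembly genes (2 of 6), the mitotic chromosome genes (1 of 2) and the checkpoint (1 of 4). The 5 kinetochore genes did not pass, and their median slope was -0.02. The steepest slopes were those of PLK1 (-0.18 ± 0.03, adjusted p = 0.0015), AURKB (-0.17 ± 0.02, 0.00035), CDCA8 (-0.16 ± 0.04, 0.014) and INCENP (-0.15 ± 0.03, 0.0026). CDC20 (-0.14 ± 0.02, 0.00014), UBE2C (-0.14 ± 0.02, 0.00038), AURKA (-0.14 ± 0.02, 0.0011), FOXM1 (-0.13 ± 0.02, 0.0007) and CCNB2 (-0.10 ± 0.02, 0.0012) fell as well. MAD2L1 rose (0.07 ± 0.02, 0.048), a call lost with RLE size factors (adjusted p = 0.053), with any single vehicle library left out (0.084 to 0.16), without the Atractylodis library at 100 µg/mL (0.18) and without the Poria library at 100 µg/mL (0.060).

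Much of this trend was carried by the highest dose. KIF20A (ENSG00000112984, chromosome 5, 138178719 to 138187715, plus strand), a kinesin of the central spindle, had 140.2, 134 and 135 CPM in vehicle libraries and 121, 118 and 99.0 CPM at 20, 100 and 500 µg/mL of Atractylodis extract, with 126, 121 and 130.3 CPM at the same doses of Poria extract. Its slope was -0.13 ± 0.02 with Atractylodis (edgeR adjusted p = 0.00045), and its level at 500 µg/mL was the lowest of all libraries. MKI67, the Ki-67 protein that coats mitotic chromosomes, had 334, 298 and 317 CPM in vehicle, 284, 280.5 and 289 CPM with Poria and 275, 278 and 219.9 CPM with Atractylodis, a slope of -0.15 ± 0.02 with Atractylodis (adjusted p = 0.0013). TPX2, which activates AURKA on spindle microtubules, had 318, 309 and 303 CPM in vehicle, 277, 287 and 281 CPM with Poria and 267, 272 and 233 CPM with Atractylodis, and a slope of -0.12 ± 0.02 (adjusted p = 0.00091). In all 3 genes the Atractylodis libraries at 20 and 100 µg/mL were close to each other and the library at 500 µg/mL was lower. TOP2A, the topoisomerase that untangles chromosomes, had 450.0, 439.6 and 444 CPM in vehicle, 465, 489 and 483 CPM with Poria and 444, 477 and 429 CPM with Atractylodis, with no trend that passed (slope -0.0016, adjusted p = 0.97). CENPF, a kinetochore protein of late G2, had 276, 276 and 266 CPM in vehicle, 273, 285 and 277 CPM with Poria and 263, 282 and 251 CPM with Atractylodis, and did not pass either (slope -0.02 ± 0.02, adjusted p = 0.41).

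Set against vehicle 1 dose at a time, 25 mitosis genes fell and 1 rose at 20 µg/mL of Atractylodis extract, 23 fell and 6 rose at 100 µg/mL, and 32 fell and 1 rose at 500 µg/mL (edgeR adjusted p under 0.05). Of all tested genes, 10.1%, 13.9% and 16.6% fell at these doses, 7.54%, 11.4% and 14.5% rose, and 17.6%, 25.3% and 31.1% passed in either direction. These tests take the lone treated library to be as variable as vehicle libraries are, and DESeq2 called 10, 16 and 24 mitosis genes in place of 26, 29 and 33. At 500 µg/mL the falls were largest for PLK1 (-0.56 ± 0.05, adjusted p = 1.6e-07), AURKB (-0.55 ± 0.05, 9.9e-09), MKI67 (-0.53 ± 0.05, 1.6e-05) and CDCA8 (-0.52 ± 0.05, 4e-09), and MAD2L1 was the gene that rose (0.16 ± 0.05, 0.017). ANLN (-0.37 ± 0.04, 5.2e-08), the kinesin KIF23 of the central spindle (-0.36 ± 0.04, 2.9e-07) and the microtubule bundler PRC1 (-0.28 ± 0.04, 6.3e-06), which serve cytokinesis, fell too. By role, 7 of 9 G2/M genes, 6 of 8 kinesins and 5 of 6 spindle assembly genes fell at this dose, and 1 of 5 kinetochore genes. The median over the 47 genes was -0.23 there, against 0.01 for all tested genes. The medians of the library deviations were -0.15, -0.11 and -0.23 at 20, 100 and 500 µg/mL, so the middle dose did not lie between its neighbours. CPM fell from dose to dose in 16 of the 47 genes and rose from dose to dose in 1, where 20.9% of all tested genes fell and 20.5% rose in this way.

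Some limits bear on the Atractylodis trend. Without its library at 500 µg/mL, 7 mitosis genes passed in place of 25 (KIF20A then had an adjusted p of 0.052), and with the dose on its own scale, not in steps, 0 passed (25 at an unadjusted p under 0.05) beside 67 of all tested genes that did. Within the treated libraries alone, where the vehicle level sets no slope, 5 fell and 0 rose (edgeR), beside 2.54% of all tested genes that fell, 1.51% that rose and 4.05% in either direction: CDC20 (-0.16, adjusted p = 0.0013), PLK1 (-0.14, 0.008), AURKB (-0.15, 0.0088), KIF20A (-0.14, 0.011) and INCENP (-0.14, 0.018). Without the library at 500 µg/mL 0 passed (12 at an unadjusted p under 0.05), and without that at 100 µg/mL 11 did. Without the library at 20 µg/mL, CDC20 (adjusted p = 0.20), PLK1 (0.49), AURKB (0.28) and INCENP (0.69) lost their calls. With offsets for GC content and length AURKB (0.072) and INCENP (0.10) lost theirs.

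**Figure D2:**
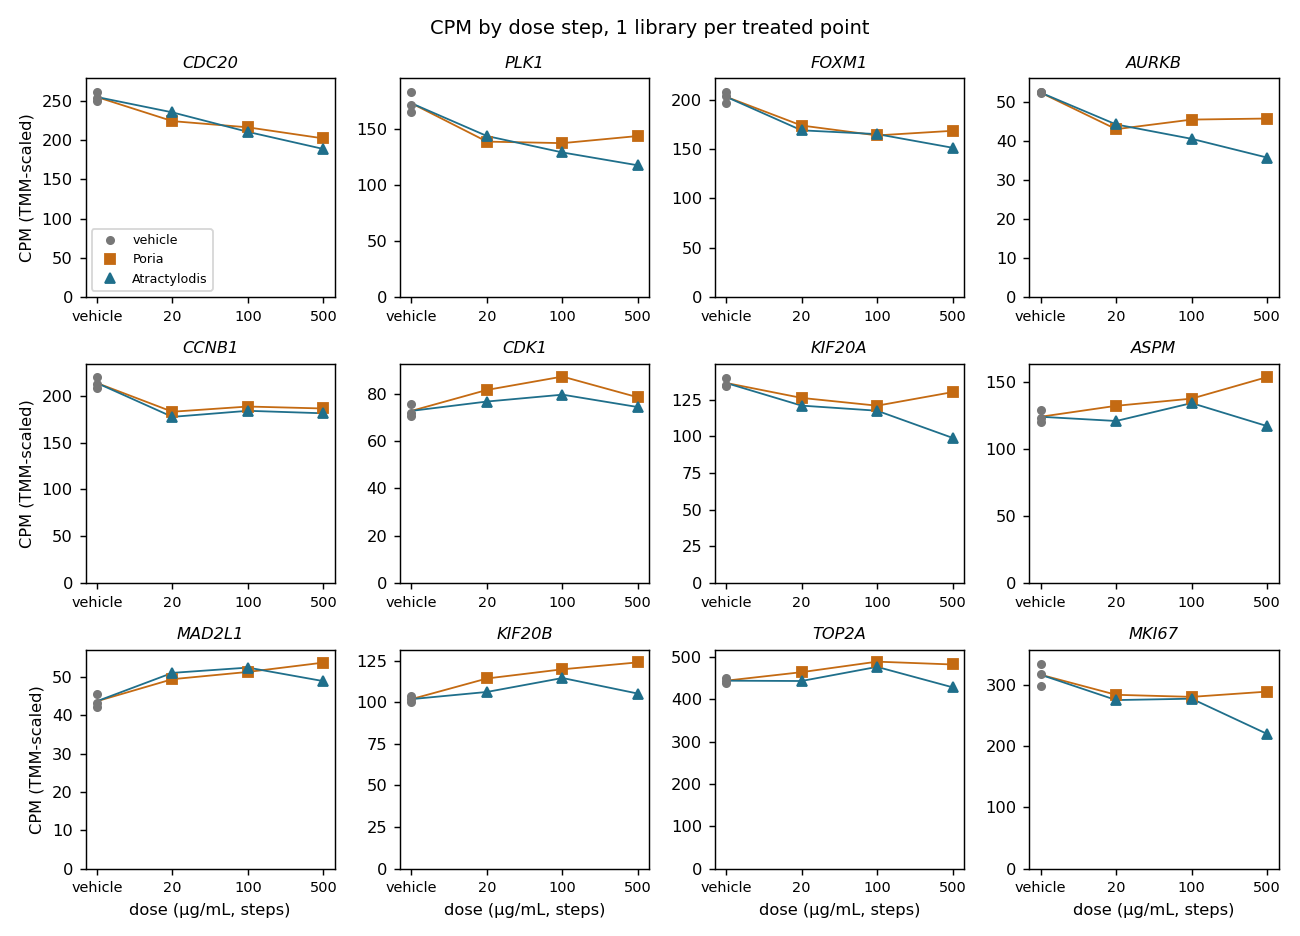
CPM (TMM-scaled) of 12 mitosis genes against the dose step, with the 3 vehicle libraries as grey circles and 1 library per dose of Poria (squares) and Atractylodis (triangles) extract; lines start at the vehicle mean. CDC20, PLK1, FOXM1 and AURKB lie below vehicle at every dose, MAD2L1 and KIF20B lie above it, and KIF20A and MKI67 drop at 500 µg/mL of Atractylodis extract.

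With the Poria extract the mitosis genes split in direction. Along its dose trend 7 of 47 fell and 4 rose (edgeR adjusted p under 0.05), where 11.7% of all tested genes fell, 9.19% rose and 20.9% passed in either direction, so the share of 23.4% lay near that of all genes. The median slope was 0.0028 per 5-fold dose step, against 0.001 for all tested genes. The genes that fell were CDC20 (-0.12 ± 0.02, adjusted p = 0.00022), PLK1 (-0.10 ± 0.03, 0.018), FOXM1 (-0.10 ± 0.02, 0.0032), UBE2C (-0.09 ± 0.02, 0.0041), INCENP (-0.08 ± 0.03, 0.049), AURKB (-0.07 ± 0.02, 0.034) and CCNB2 (-0.06 ± 0.02, 0.025). The 4 that rose were KIF20B (0.10 ± 0.02, 0.0017), ASPM (0.09 ± 0.02, 0.0032), MAD2L1 (0.09 ± 0.02, 0.011) and CENPE (0.08 ± 0.02, 0.019).

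CENPE, the kinesin that moves chromosomes to the spindle equator, had 64.6, 59.1 and 62.8 CPM in vehicle libraries, 69.2, 69.7 and 73.1 CPM with 20, 100 and 500 µg/mL Poria extract and 62.4, 68.5 and 59.8 CPM at the same doses of Atractylodis extract. ASPM (ENSG00000066279, chromosome 1, 197084128 to 197146694, minus strand), which organises the spindle poles, had 129, 120.2 and 123 CPM in vehicle, 132, 137 and 153 CPM with Poria and 121, 134 and 117 CPM with Atractylodis. All 3 Poria libraries were above all vehicle libraries for both genes, and the Atractylodis libraries were mixed. Against vehicle, 16 mitosis genes fell and 5 rose at 20 µg/mL of Poria extract, 15 fell and 6 rose at 100 µg/mL, and 13 fell and 9 rose at 500 µg/mL (edgeR adjusted p under 0.05). Of all tested genes, 11.5%, 14.3% and 17.2% fell at these doses, 8.44%, 11.3% and 14.5% rose, and 19.9%, 25.6% and 31.7% passed in either direction. DESeq2 called 9, 11 and 9 mitosis genes at these doses, in place of 21, 21 and 22. At 500 µg/mL CDC20 (-0.33 ± 0.04, edgeR adjusted p = 3.7e-07), FOXM1 (-0.27 ± 0.04, 9.5e-06) and PLK1 (-0.27 ± 0.05, 0.00028) fell most. ASPM (0.31 ± 0.04, 1.5e-06), MAD2L1 (0.30 ± 0.05, 4.6e-05), KIF20B (0.28 ± 0.04, 2.9e-06) and CENPE (0.23 ± 0.05, 0.00042) rose most, and the cytokinesis gene ECT2, the kinesin KIF14, the kinetochore gene NDC80, CCNA2 and TOP2A rose by 0.12 to 0.18. CPM rose from dose to dose in 18 of the 47 genes and fell from dose to dose in 2, where 20.6% of all tested genes rose and 22.4% fell in this way.

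Where the treated doses alone set the Poria slope, 0 mitosis genes passed (edgeR, with 6 at an unadjusted p under 0.05). DESeq2 also called 0, with 4 at an unadjusted p under 0.05. Of all tested genes, 1.25% fell, 1.2% rose and 2.45% passed in either direction. The slopes of the mitosis genes ran from -0.07 to 0.11, 37 positive and 10 negative. In simulated counts this edgeR test found 19% of the genes given a slope of 0.1, so slopes of this size can be missed. Those genes were drawn from all kinds of genes, with the spread of the fit by group, so 19% is not a rate for the mitosis genes. The count of 11 along the Poria trend dropped to 7 without vehicle replicate 2, without vehicle replicate 3 or without the Poria library at 100 µg/mL, and to 0 with the dose on its own scale, not in steps (6 at an unadjusted p under 0.05). Without the Poria library at 500 µg/mL, ASPM (adjusted p = 0.12), MAD2L1 (0.075) and CENPE (0.10) lost their calls, and CENPE also without vehicle replicate 2 (0.074) or 3 (0.050). AURKB and INCENP lost theirs with any single vehicle library left out, or the Poria library at 100 µg/mL (adjusted p = 0.087 to 0.14), and INCENP also with any single Atractylodis library left out (0.059 to 0.070). PLK1 lost its call without the Poria library at 100 µg/mL (0.056).

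The extracts were then compared with each other, as the Atractylodis slope minus the Poria slope in the same fit. Every one of the 47 mitosis genes had the lower slope with Atractylodis, where 49.6% of all tested genes did, and the median difference was -0.06 per dose step, against 0.0004 for all genes. The 47 genes share their libraries and are not independent of each other. On their own, 4 genes passed, all lower (edgeR adjusted p under 0.05), beside 0.486% of all tested genes that were lower, 0.666% that were higher and 1.15% in either direction. CCNA2 (ENSG00000145386, chromosome 4, 121816444 to 121823933, minus strand), cyclin A2, had 85.4, 79.3 and 80.6 CPM in vehicle libraries, 78.0, 77.6 and 67.3 CPM with rising Atractylodis dose and 80.0, 81.1 and 90.7 CPM with rising Poria dose. Atractylodis at 500 µg/mL was the lowest library and Poria at 500 µg/mL the highest, and the slopes differed by -0.10 ± 0.02 (adjusted p = 0.03). BUB1 (ENSG00000169679, chromosome 2, 110637698 to 110678114, minus strand), a checkpoint kinase, had 74.9, 72.1 and 73.9 CPM in vehicle, 66.2, 67.2 and 59.6 CPM with Atractylodis and 68.6, 75.7 and 75.4 CPM with Poria, a difference of -0.10 ± 0.02 (adjusted p = 0.027). KIF20A differed by -0.10 ± 0.02 (adjusted p = 0.034) and ASPM by -0.10 ± 0.02 (adjusted p = 0.037). KIF20A lay below all vehicle libraries at every dose of either extract and was lowest with 500 µg/mL Atractylodis extract, whereas ASPM lay above them at every dose of Poria extract.

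The difference between the extracts was largest at the highest dose. At 20 µg/mL the Atractylodis library was below the Poria library for 38 of the 47 mitosis genes (50.3% of all tested genes), with a median log2 difference of -0.06. At 100 µg/mL it was below for 41 (49.4% of all genes; median -0.04), and at 500 µg/mL for all 47 (49.9%; median -0.22). These are comparisons of 1 library with 1 library. Without the Atractylodis library at 500 µg/mL 0 mitosis genes passed the test of the slopes (edgeR; 9 at an unadjusted p under 0.05), and likewise 0 without the Poria library at 500 µg/mL (16). Of the other libraries left out, 2 passed without vehicle replicate 1, 2 or 3, 8 without the Poria library at 20 µg/mL and 7 without the Atractylodis library at 100 µg/mL. KIF20A (adjusted p = 0.050 to 0.063) and ASPM (0.052 to 0.064) were the genes lost when 1 vehicle library was left out. ASPM was also lost without the Atractylodis library at 20 µg/mL (0.050) and BUB1 without the Poria library at 100 µg/mL (0.064). DESeq2 called 11 mitosis genes in the same comparison.

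**Figure D3:**
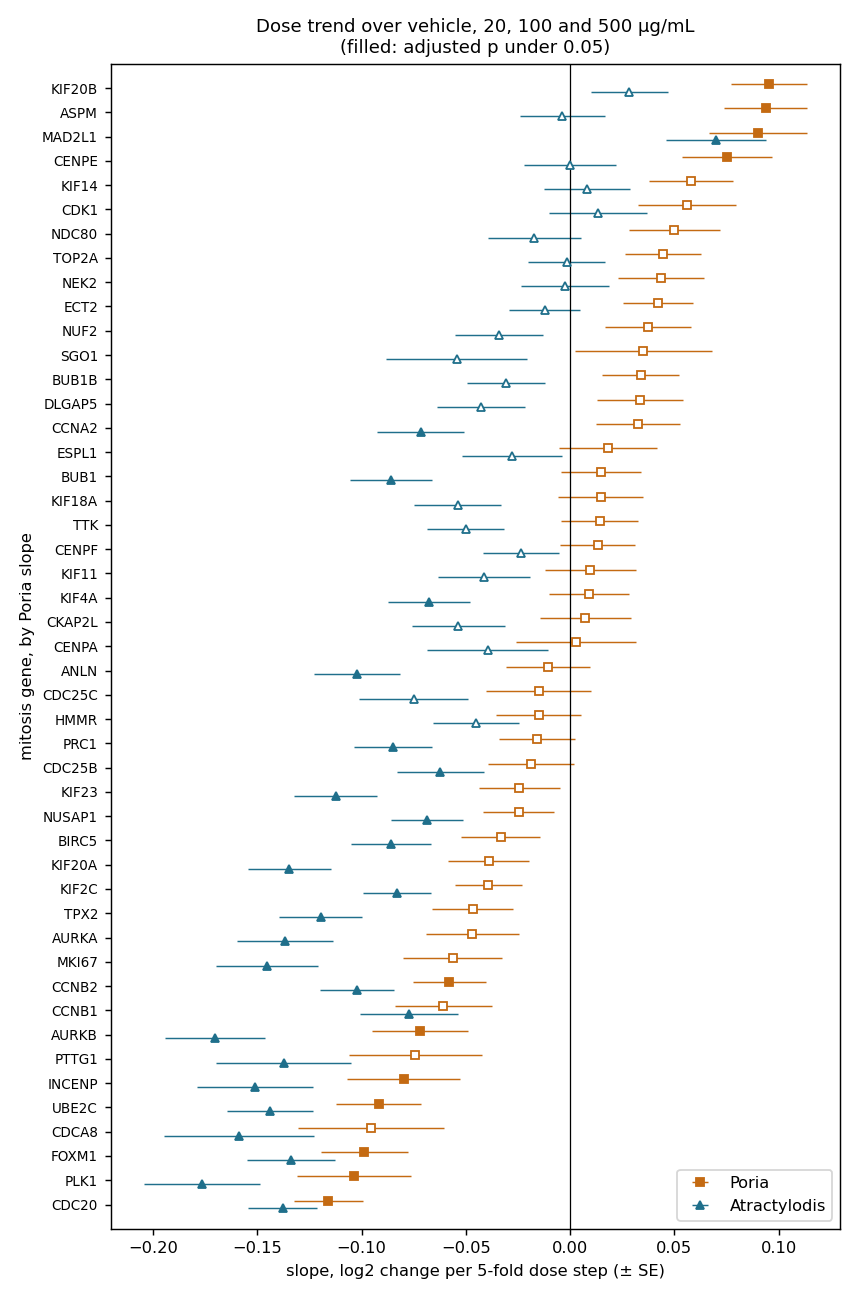
Slope per 5-fold dose step (log2, ± SE, 9 libraries in the fit) of the 47 mitosis genes for the Poria (squares) and Atractylodis (triangles) extracts, sorted by the Poria slope; filled symbols passed at an adjusted p under 0.05. Each triangle lies to the left of its square, with the difference between -0.10 and -0.02.

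**Figure D4:**
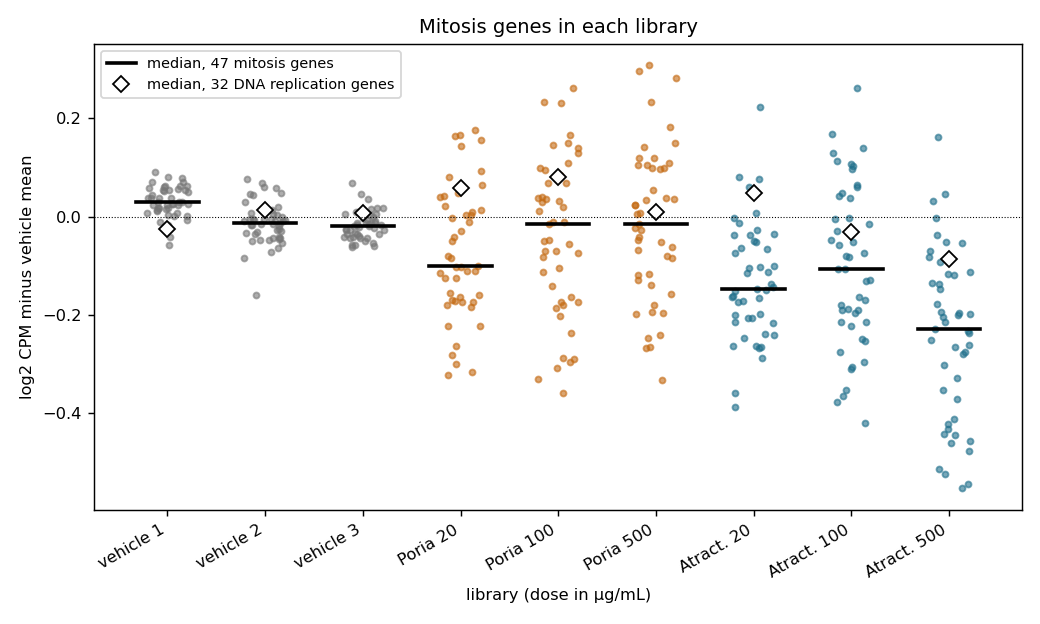
Log2 CPM minus the vehicle mean of the 47 mitosis genes (points) in each of the 9 libraries, with their median (line) and the median of 32 DNA replication genes (diamond). The median of the mitosis genes is -0.23 in the Atractylodis library at 500 µg/mL and -0.01 in the Poria library at 500 µg/mL.

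Genes of neighbouring steps were read from lists with no mitosis gene of the 47 in them. Of all tested genes, 10.6% fell and 8.54% rose along the Atractylodis trend, 11.7% and 9.19% along the Poria trend, and 13.3% and 12% in treated against vehicle libraries. Of 28 other mitosis genes, 17 fell and 0 rose along the Atractylodis trend (edgeR), with a median slope of -0.07, and 10 fell and 1 rose in treated against vehicle libraries. KIFC1, a minus-end kinesin (-0.15 ± 0.02 with Atractylodis, adjusted p = 0.00023), TACC3, which strengthens spindle fibres (-0.12 ± 0.02, 0.00039), and CDCA3 (-0.16 ± 0.02, 0.00047) had the smallest p. Of 18 genes of the MuvB and DREAM complexes and CDK inhibitors, 4 fell along the Atractylodis trend and 0 rose, with a median slope of -0.01. MYBL2, which encodes B-MYB, fell with Atractylodis (-0.23 ± 0.03, adjusted p = 0.0001), with Poria (-0.17 ± 0.03, 0.00028) and in treated against vehicle libraries (-0.43 ± 0.10, 0.01), by more than any of the 47 genes in these comparisons. Of these 18 genes, 2 rose and 3 fell in treated against vehicle libraries, with a median change of 0.0025. Of all tested genes 12% rose and 13.3% fell there, so these counts lay near the shares of all genes. CDKN1B, the CDK inhibitor p27, was among those that rose (0.23 ± 0.06, edgeR adjusted p = 0.015).

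Genes of other complexes and of DNA replication were read in the same way. Of 32 DNA replication genes, 8 fell and 0 rose along the Atractylodis trend, with a median slope of -0.03, and 3 fell and 0 rose along the Poria trend, where 11.7% of all tested genes fell. RRM2, of ribonucleotide reductase (-0.10 ± 0.02 with Atractylodis, edgeR adjusted p = 0.0029), and the helicase subunit MCM7 (-0.07 ± 0.02, 0.0033) had the smallest p. In treated against vehicle libraries 5 rose and 3 fell, with PCNA, the replication clamp, among those that rose (0.14 ± 0.04, 0.01). Within the treated Atractylodis libraries alone, 6 of the 32 replication genes fell and 0 rose, with a median slope of -0.09. There 5 of the 47 mitosis genes fell, with a median of -0.05, and 2.54% of all tested genes. At 500 µg/mL of Atractylodis extract against vehicle, the median change was -0.09 for the replication genes and -0.23 for the mitosis genes. Of 16 condensin and cohesin genes, 8 rose and 0 fell along the Poria trend, with SMC4 (0.09 ± 0.02, 0.0019), STAG2 (0.08 ± 0.02, 0.0023) and NCAPD3 (0.08 ± 0.02, 0.0073) first, and 1 rose and 3 fell along the Atractylodis trend. Of 30 other kinetochore and centromere genes, 1 rose and 5 fell along the Atractylodis trend and 2 rose and 2 fell along the Poria trend. Of 17 genes of the anaphase-promoting complex, 1 rose and 3 fell along either trend. In both lists the falls along the Atractylodis trend lay above the 10.6% of all tested genes by few genes. The same held for the falls of the anaphase-promoting complex list along the Poria trend, where 11.7% of all tested genes fell. The other counts of the kinetochore and anaphase-promoting complex lists lay below the shares of all tested genes.

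Change and GC content of the transcript moved together among the mitosis genes. Their transcripts had a GC content of 34.2% to 59.6%, with a median of 42.6%, against 47.8% for 12634 genes with at least 2 CPM on average. Across the 47 genes, Spearman's rho between GC content and change was -0.80 in treated against vehicle libraries, -0.79 for the Poria slope, -0.75 for the Atractylodis slope and 0.05 for the difference between the slopes. Across the 12634 genes, each treated library deviated from vehicle with a rho of -0.49 to -0.14 with GC content, and each vehicle library from the vehicle mean with -0.08 to 0.12. These are descriptions over genes of the same libraries. Of the 32 mitosis genes below the median GC content of all genes, 3 rose and 5 fell in treated against vehicle libraries, and of the 15 others 0 rose and 12 fell. Among the genes that rose, KIF20B had a GC content of 34.2%, CDK1 37.0% and MAD2L1 39.4%. Among the 3 that fell most, CDCA8 had 51.4%, PLK1 57.1% and PTTG1 49.2%. The roles counted above also differed in GC content. The 4 genes of the chromosomal passenger complex had 51.4% to 59.6%, and the 5 kinetochore genes had 35.3% to 47.8%. Whether these roles differ in change apart from their GC content was not tested.

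With offsets that take out each library's trend over GC content and transcript length, more genes fell along the Atractylodis trend and most of the rises did not pass. Along the Atractylodis trend 32 of 47 fell and 0 rose, beside 8.35% of all tested genes that fell and 6.13% that rose, and 23 of the 25 calls were shared with the uncorrected fit. In treated against vehicle libraries 19 fell and 1 rose (11.8% of all tested genes fell and 9.76% rose), with 15 calls shared. MAD2L1 was the gene that rose (0.13, edgeR adjusted p = 0.025), and KIF20B (adjusted p = 0.56) and CDK1 (0.52) did not pass. Along the Poria trend 6 fell and 1 rose, with 5 calls shared, where 8.55% of all tested genes fell, 6.88% rose and 15.4% passed in either direction, so the mitosis genes lay near the share of all genes. KIF20B was the gene that rose (0.05, adjusted p = 0.031), and ASPM (0.12), MAD2L1 (0.10) and CENPE (0.38) did not pass, nor did PLK1 (0.059), AURKB (0.45) and INCENP (0.22). For the difference between the extracts all 47 genes stayed negative and 7 passed, all lower (0.606% of all tested genes were lower and 1.46% passed in either direction), with all 4 uncorrected calls among them. After the offsets, rho with GC content was -0.50 in treated against vehicle libraries, -0.45 for the Poria slope and -0.41 for the Atractylodis slope, so a part of the relation remained. Its part in the results beyond these values was not tested.

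**Figure D5:**
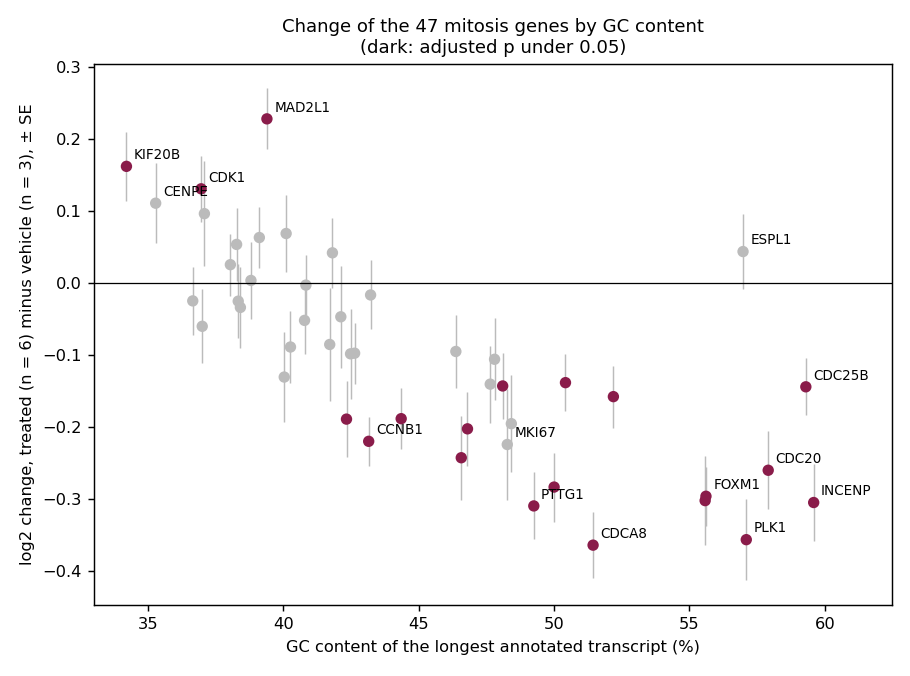
Log2 change of the 47 mitosis genes in treated (n = 6) minus vehicle (n = 3) libraries (± SE) against the GC content of the longest annotated transcript in percent; dark points passed at an adjusted p under 0.05. The 3 genes that rose have a GC content of 34.2% to 39.4%. Of the 15 genes at or above the median GC content of all genes, ESPL1, KIF20A and MKI67 did not pass.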

How the data were processed

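RNA of 9 SW1783 libraries was measured: 1 library for each of 3 doses of 2 extracts, and 3 vehicle libraries. The submitters' processing notes name FastQC 0.11.9, Trim Galore 0.6.5, STAR 2.7.3a, RSEM 1.3.3 and the builds hg38 and GRCh38. Per the labels' protocols the library kit was directional, while the strand setting of the counting and its annotation release are not given in the sources used here. What the authors deposited are expected counts from RSEM, 1 per gene and library, which were rounded to integers here. Of 279 columns, 9 were used, and the other 270 hold samples not used here. Symbols, GRCh38 positions and transcript GC content were read from the GENCODE 29 annotation, with a table of gene names, and these named 57055 of 60675 genes.

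Tests used edgeR 4.0.16 in R 4.3.3: TMM scaling, filterByExpr (count minimum 10, total minimum 15), robust quasi-likelihood fits and Benjamini-Hochberg adjustment over all 18310 genes tested, with a threshold of 0.05. Slopes took vehicle as step 0 and the doses 20, 100 and 500 µg/mL as steps 1, 2 and 3, with 1 slope per extract on all 9 libraries (6 residual degrees of freedom). The slope within treated libraries had an added offset per extract (4), treated against vehicle had 7 and single doses had 2. The SE of a log2 change is its size over the root of its F value. GC offsets were natural splines (5 degrees of freedom) of GC content and log transcript length per library. Counting error alone was 0.682% to 3.52% of a mitosis gene's vehicle count (median 1.59%), and in 6 of the 47 genes it was at least as large as the spread of the vehicle libraries. Counts of near-identical copies (PTTG2, PTTG3P, KIF4B, CDC20P1, MAD2L1P1) were at most 0.125% of those of the mitosis gene.

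The mitosis genes, their roles and the other lists were chosen with earlier results of these data known. The text may name all 47, gives every library's value for 15 set genes and for up to 8 genes per direction with the smallest p in the trends and in treated against vehicle, and names up to 3 genes with the smallest p per other list. Alternatives were RLE size factors, DESeq2 1.42.0, no filter, GC offsets, the dose itself, vehicle replicate 2 alone and each library left out. Scripts were tested on simulated data.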

Additional observations from a re-analysis of the deposited data

Results flagged for a closer look

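In 4 mitosis genes the dose trends of the extracts differed by a test of the difference itself, the Atractylodis slope minus the Poria slope on all 9 libraries (edgeR quasi-likelihood test, adjusted over 18310 genes). The difference was -0.104 per 5-fold dose step for CCNA2 (adjusted p = 0.03), -0.101 for BUB1 (adjusted p = 0.027), -0.0955 for KIF20A (adjusted p = 0.034) and -0.0975 for ASPM (adjusted p = 0.037). For CCNA2 the slope was -0.07 with Atractylodis and 0.03 with Poria, for BUB1 -0.09 and 0.01, for KIF20A -0.13 and -0.04, and for ASPM -0.00 and 0.09. None of the 4 passed without the Atractylodis library or without the Poria library at 500 µg/mL (adjusted p = 0.47 to 0.69). The group of 3 vehicle libraries is too small for a check of single libraries that stand apart.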

How the results depend on the processing

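Among the 47 mitosis genes, counts of calls moved as follows. Without a filter on low counts they were 17 for the Poria trend (11 in the report), 15 for the difference of the trends (4), 1 for the Poria slope within treated libraries (0) and 9 for the Atractylodis slope within them (5). With GC and length offsets they were 7, 7 and 8 for the Poria trend, the difference and the Atractylodis slope within treated libraries. With the dose itself they were 0 for the Poria trend, 0 for the Atractylodis trend (25) and 1 for the difference. With vehicle replicate 2 alone they were 3, 12 and 2 for these, and 3 for treated against vehicle (20), in fits with 2 fewer libraries. DESeq2 called 11 for the difference, 9, 11 and 9 at 20, 100 and 500 µg/mL of Poria (21, 21 and 22), and 10 and 16 at 20 and 100 µg/mL of Atractylodis (26 and 29). The cause was not tested. Leaving out 1 library at a time gave 7 to 13 for the Poria trend, 7 to 27 for the Atractylodis trend, 0 to 8 for the difference, 14 to 23 for treated against vehicle, 0 to 1 and 0 to 11 for the slopes within treated libraries of Poria and Atractylodis, 18 to 29, 21 to 24 and 20 to 25 for the Poria doses, and 24 to 29, 23 to 29 and 32 to 35 for the Atractylodis doses, low to high. RLE size factors moved no count by over 1.5 times. No called value changed sign in these alternatives: 466 values of named genes kept their call and 118 lost it, 23 of them with the dose itself, 19 with vehicle replicate 2 alone and 14 without the Atractylodis library at 500 µg/mL. No paired analysis was possible because every treated library carries replicate number 2, so the groups share fewer than 2 numbers. With 1 library per treated condition, a difference between doses cannot be told apart from a difference between libraries.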
